A study of Mus musculus with 4 samples.

Results

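Narrow H3K4me2 domains that carry an LSD1 peak are described here in mouse embryonic stem cells. Deposited H3K4me2 peak regions of the autosomes that lay no more than 1 kb apart were merged, which gave 23226 domains, of which 12375 spanned under 1 kb. Of these narrow domains, 968 (7.82%, exact 95% interval 7.36 to 8.31) overlapped a deposited LSD1 region by 1 bp or more and touched no IgG region, and they are the members described below. The deposited lists therefore chose them, and the LSD1 and H3K4me2 reads inside them are given as a description. The closest comparison is with the 11397 narrow domains that touched neither an LSD1 nor an IgG region. A further 10 narrow domains touched both and were left out.

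All 4 libraries came from the 129SV embryonic stem cell line R1, grown on gelatin with leukaemia inhibitory factor at 1000 U per ml and used at passages 13 to 18. Cells were fixed with 1% formaldehyde. One library was made from chromatin without immunoprecipitation (Input), and one each after precipitation with control IgG, with the antibody labelled LSD1 and with an H3K4me2 antibody, which binds histone H3 dimethylated at lysine 4. No genotype or treatment differed between them. The LSD1 antibody's catalogue number in the labels is one that another supplier is known to use for an antibody to H3K27me3, a mark of Polycomb repression, so the name LSD1 follows the label throughout. With 1 library per group no difference could be checked against replicates and none was given a p-value, and intervals cover counting error only. The libraries held from 3801082 (Input) to 6416657 (H3K4me2) reads. Densities are given in RPM, the reads found per 1000000 that a library holds, and a count of 0 still allows 3 reads, which make 0.789 RPM in Input and 0.631 RPM in IgG.

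LSD1 (KDM1A) is a flavin-dependent demethylase whose substrates are the mono- and dimethylated forms of H3 lysine 4. It works in complexes such as CoREST and NuRD and is known to be present at enhancers and promoters of embryonic stem cells. H3K4me2 marks promoters, where it often flanks the start site in wide domains, and enhancers, where it tends to be confined to a few nucleosomes. No gene annotation of the build of the files, mm9, was used here, so none of the members is assigned to a promoter, enhancer or gene.

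The members were small but not the smallest of the narrow domains. Their width ranged from 292 to 999 bp with a median of 748.5 bp, against a median of 628 bp for narrow domains without an LSD1 region. A single H3K4me2 region made up 951 of them and 2 joined regions made up the other 17. One LSD1 region lay in 953 members and 2 in 15. The 983 LSD1 regions concerned were 19.3% of the 5106 deposited, with a median width of 431 bp. Most of them, 570 (58.0%), lay wholly inside the domain, 402 (40.9%) passed one edge of it and 11 covered it entirely. The midpoint of the LSD1 region fell inside the domain in 932 cases, and the centres of region and domain lay a median of 99 bp apart. A 1-kb limit cuts a continuous range of widths. The widest member, on chromosome 9 from 65238486 to 65239484, held 25 LSD1 and 37 H3K4me2 reads, and a domain of 1000 bp on chromosome 2 from 76176233 to 76177232, just too wide to enter, held 33 and 48.

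At single members the LSD1 library gave 5 reads at the lowest, a median of 23 and 128 at the highest. The H3K4me2 library gave 11, 34 and 155 reads in the same order. IgG gave 0, 4 and 73 reads, and Input 0, 1 and 38. Input was at 0 in 412 members (42.6%) and IgG in 30 (3.10%), whereas no member lacked LSD1 reads. In RPM per kb of domain the summed levels were 7.27 (7.19 to 7.35) for H3K4me2, 5.41 (5.34 to 5.48) for LSD1, 1.19 (1.16 to 1.23) for IgG and 0.358 (0.335 to 0.381) for Input. LSD1 thus stood 4.53-fold (4.38 to 4.68) over IgG and H3K4me2 6.09-fold (5.89 to 6.29). At least 2-fold over IgG, with a pseudocount of 0.5 reads, were 926 members (95.7%) for LSD1 and 956 (98.8%) for H3K4me2. Among all 12365 narrow domains without an IgG region these shares were 74.1% and 99.1%. At least 4-fold over IgG were 561 members (58.0%) for LSD1 and 762 (78.7%) for H3K4me2, against 33.8% and 77.7% of all 12365. LSD1 reads chose the members, so the first difference says nothing beyond the rule.

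**Figure D1:**
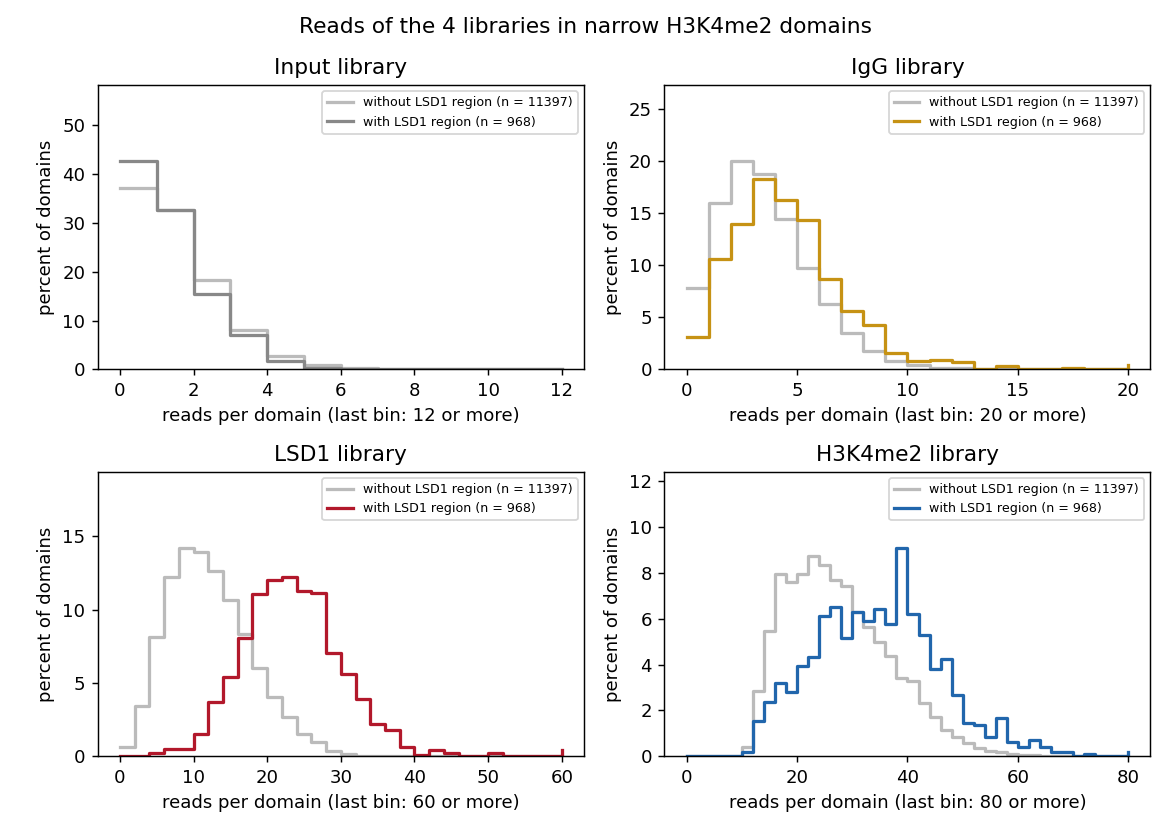
Reads per narrow domain in each of the 4 libraries, as a percent of domains, for the 968 domains with an LSD1 region (coloured, dark grey for Input) and the 11397 without (light grey). LSD1 reads are shifted upward in the members by choice (median 23 against 11) but overlap widely; IgG is shifted slightly upward (4 against 3), and Input is more often at 0 (42.6% against 37.0%).

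The boundary between narrow domains with and without an LSD1 region was a gradual one in the reads. Narrow domains without an LSD1 region held a median of 11 LSD1 reads and up to 36, and LSD1 stood 3.08-fold (3.04 to 3.11) over IgG in them. The lower quartile of the members was 18 LSD1 reads, and 1800 domains without a called region (15.8%, 15.1 to 16.5) reached it. These 1800 outnumbered the 775 members with as many reads. Above this floor the members still held more LSD1 reads (median 24 against 20) and were narrower (median 796 against 850.5 bp), with the same median of 37 H3K4me2 reads. Input was lower in them, at 0.386 against 0.559 RPM per kb, and IgG was slightly higher, at 1.23 against 1.13 RPM per kb. The peak caller and its control (not given in the sources used here) could bear on these levels, and their part was not tested.

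The members with the most reads were not all alike in the controls. The first, on chromosome 18, held 128 LSD1 and 155 H3K4me2 reads but also 73 IgG and 38 Input reads. LSD1 was only 1.43-fold (1.06 to 1.93) over IgG there. The second, on chromosome 19 from 61275301 to 61276098, held 85 LSD1, 112 H3K4me2, 24 IgG and 11 Input reads, with LSD1 at 2.89-fold (1.82 to 4.75) over IgG. The third, on chromosome 8 from 19982672 to 19983355, held 64 LSD1, 50 H3K4me2, 20 IgG and 8 Input reads. All 4 libraries were therefore high in these domains. At least 5 Input reads occurred in 8 of the 968 members.

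The other members among the 10 with the most LSD1 reads held 5 to 14 IgG and 1 to 4 Input reads, mostly above the median member's 4 and 1. On chromosome 16 a domain of 292 bp, from 38265896 to 38266187, held 51 LSD1 and 32 H3K4me2 reads against 5 IgG reads and 1 Input read, and LSD1 was 8.31-fold (3.34 to 26.7) over IgG. Per kb of this short domain IgG was at 3.60 and Input at 0.901 RPM, against 1.19 and 0.358 over all members. This domain was also the narrowest member, and it had the highest ratio of LSD1 to H3K4me2, 1.75 (1.11 to 2.82). Only 14.3 kb away, from 38250902 to 38251617, lay a member with a ratio of 1.69 (1.11 to 2.60), with 60 LSD1, 39 H3K4me2, 14 IgG and 3 Input reads and 2 LSD1 regions. Outside the 10, a member from 38253866 to 38254730 lay between them, with 34 LSD1, 44 H3K4me2, 7 IgG and 3 Input reads. A second pair among the 10, 36.4 kb apart on chromosome 8, began with the domain from 19982672 named above. Its neighbour from 20019710 to 20020472 held 45 LSD1, 33 H3K4me2, 12 IgG and 3 Input reads. A further chromosome 8 member, from 19892392 to 19892984, held 34 LSD1, 37 H3K4me2, 17 IgG and 3 Input reads. The remaining 4 of these 10, on chromosomes 1, 12, 15 and 17, held 43 to 51 LSD1, 46 to 59 H3K4me2 and 7 to 12 IgG reads.

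LSD1 and H3K4me2 reads did not scale together closely from member to member. Over all members the ratio of LSD1 to H3K4me2 in RPM was 0.744 (0.731 to 0.756). The lowest ratio among single members, on chromosome 2 from 79293844 to 79294436, was 0.300 (0.0995 to 0.763), with 6 LSD1 and 22 H3K4me2 reads. On chromosome 10 from 87965727 to 87966645 the counts were 18 and 63, a ratio of 0.314 (0.175 to 0.538). Across the 968 members LSD1 and H3K4me2 in RPM per kb had a Spearman correlation of 0.162 and a Pearson correlation of 0.561. Without the 8 members that held at least 5 Input reads these were 0.153 and 0.276, so the Pearson value rested largely on those 8. In the 11397 narrow domains without an LSD1 region the Spearman correlation was 0.296 and the Pearson correlation 0.298. The LSD1 call and the width limit restrict the range of values in members, and their part was not tested. Members share the libraries and are not independent samples, and counts of this size carry wide error.

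The balance of the LSD1 and H3K4me2 libraries varied with width. In the 100 members under 500 bp LSD1 to H3K4me2 was 0.961 (0.896 to 1.03), in the 173 members of 700 to 799 bp 0.735 (0.707 to 0.765), and in the 203 members of 900 to 999 bp 0.693 (0.670 to 0.716). The H3K4me2 density rose from 6.07 to 7.41 RPM per kb between the first and the last of these classes, while the LSD1 density fell from 5.84 to 5.13. The calls of both libraries chose these domains, and the part of that choice in the gradient was not tested.

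Around the domain centres both ChIP libraries formed a single, narrow rise. In the central 200 bp H3K4me2 reached 9.48 RPM per kb (9.31 to 9.65) and LSD1 7.03 (6.88 to 7.19). At 500 to 1000 bp from the centre H3K4me2 was at 2.02 and LSD1 at 1.60, and at 2 to 3 kb they were at 1.01 and 0.832. Both exceeded the midpoint between their highest and their distant level over 600 bp. IgG had a lower rise of its own, from 0.653 at 2 to 3 kb to 1.31 (1.24 to 1.39) at the centre. Input went the other way, from 0.502 (0.486 to 0.518) at 2 to 3 kb to 0.344 (0.303 to 0.389) at the centre.

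**Figure D2:**
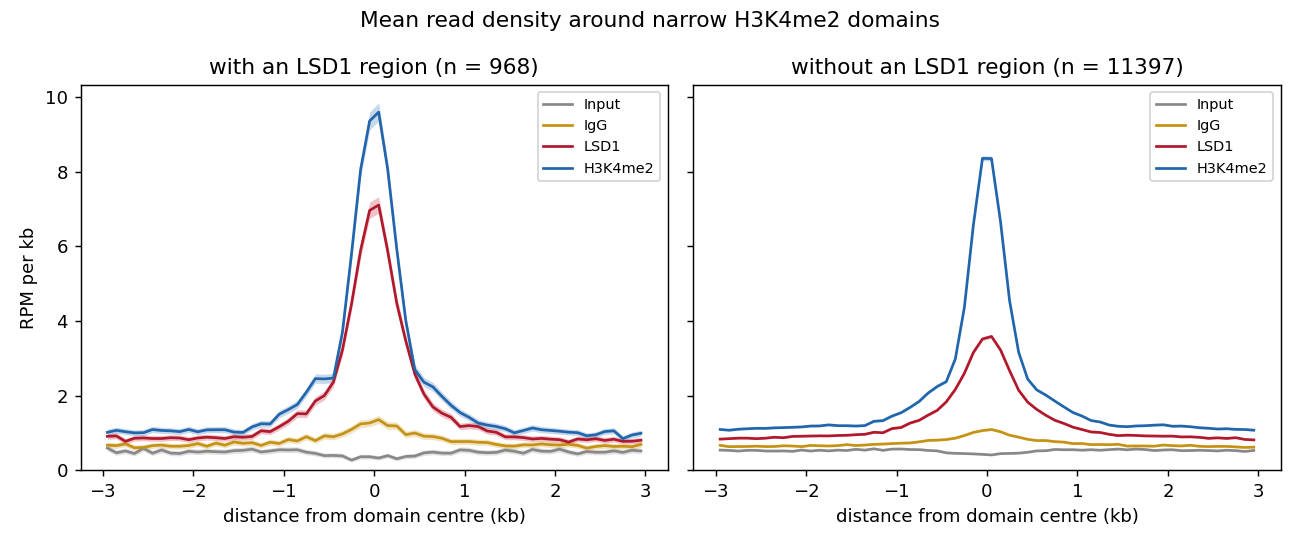
Read density (RPM per kb, bins of 100 bp, bands are exact Poisson 95% intervals) by distance from the domain centre for narrow domains with and without an LSD1 region. H3K4me2 reaches 9.48 RPM per kb in the central 200 bp of members and 8.35 in the others, LSD1 7.03 against 3.55, IgG rises and Input falls towards the centre.

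Outside called H3K4me2 regions the members stood on a low level. At 1 to 3 kb from their edges LSD1 was 1.14-fold (1.11 to 1.17) over IgG and H3K4me2 1.23-fold (1.20 to 1.26). The same flanks of narrow domains without an LSD1 region gave 1.22 (1.21 to 1.23) and 1.40 (1.40 to 1.41). Over Input, LSD1 in these flanks was 1.45-fold beside members and 1.45-fold (1.44 to 1.46) beside the others, with overlapping intervals, and at 3 to 10 kb it was 1.29-fold beside both. H3K4me2 over Input at 1 to 3 kb was 1.57-fold (1.53 to 1.62) beside members and 1.67-fold (1.66 to 1.68) beside the others. Over IgG at 3 to 10 kb, LSD1 was 1.07-fold (1.06 to 1.09) beside members against 1.12-fold beside the others. H3K4me2 over IgG was 1.08-fold (1.07 to 1.10) against 1.20-fold there. H3K4me2 was therefore lower beside the members with either control, whereas LSD1 was lower relative to IgG but not relative to Input. IgG itself had overlapping intervals at 1 to 3 kb, at 0.645 (0.633 to 0.657) beside members and 0.631 (0.628 to 0.635) RPM per kb beside the others. At 3 to 10 kb IgG was higher beside members, at 0.611 (0.605 to 0.617) against 0.592 (0.591 to 0.594) RPM per kb. LSD1 at 1 to 3 kb was at 0.734 (0.723 to 0.746) beside members against 0.770 (0.767 to 0.774) RPM per kb beside the others. At 3 to 10 kb LSD1 was at 0.654 (0.648 to 0.660) against 0.666 (0.664 to 0.667) RPM per kb.

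The offset of the LSD1 and H3K4me2 summits asked how near to each other both libraries peak, in members whose regions overlap by the rule. A summit was the highest point of the read density smoothed with a Gaussian of 75 bp SD. In the domain joined with its LSD1 regions, all 968 members held at least 10 reads of both libraries. Within the domain alone, 956 members held at least 10 LSD1 reads. The summits lay a median of 104.5 bp (94 to 114) apart, with quartiles of 43 and 213 bp. They lay within 50 bp of each other in 265 members (27.4%, 24.6 to 30.3) and over 200 bp apart in 262 (27.1%). The signed offset along the chromosome had a median of 6 bp (-3 to 18), with 502 members positive and 464 negative.

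The position of a summit is itself uncertain with so few reads, and both strands of 1 library measure this. After the typical distance between strands was subtracted, forward and reverse summits of LSD1 differed by a median of 99 bp (90 to 107), and those of H3K4me2 by 109 bp (96 to 129). Between the libraries, with reads of 1 strand only and so at a like depth, LSD1 and H3K4me2 summits differed by a median of 131 bp (118 to 140) on the forward strand and 121 bp (108 to 132) on the reverse. Both values lay above the strand distance within LSD1, and their intervals overlapped that within H3K4me2. The signed offset on a single strand had a median of 5 bp (-5 to 18) forward and -2 bp (-16 to 9) reverse, so neither strand showed a shared direction along the chromosome. With the mean position of the reads in place of the summit, the libraries lay 45.3 bp (42.1 to 48.5) apart. Narrow domains without an LSD1 region, in the 6998 with at least 10 LSD1 reads, had a median summit distance of 123 bp (119 to 127). LSD1 strand summits there differed more, by 176 bp. Over all 11397 such domains the median was 11 LSD1 reads, against 23 in members, and summits were sought in the domain alone. The part of depth and search span in these distances was not tested.

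**Figure D3:**
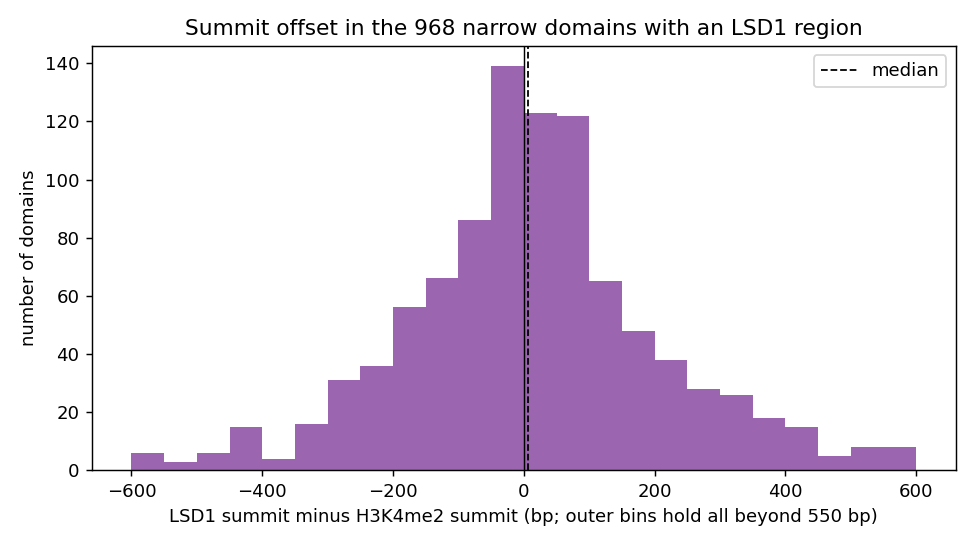
Number of the 968 members by LSD1 summit minus H3K4me2 summit, in bins of 50 bp along the chromosome. The distribution is centred near 0, with a median of 6 bp, and 262 members lie more than 200 bp to either side.

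Reads of both libraries also overlapped around each summit. The rule required their regions to overlap, and summits were sought only in the joined span, so closeness was partly set by the choice. At the LSD1 summit (central 200 bp) H3K4me2 was at 8.85 RPM per kb (8.69 to 9.02), against 11.4 (11.2 to 11.6) at its own summit. At the H3K4me2 summit LSD1 was at 7.09 (6.94 to 7.25), against 9.41 (9.23 to 9.59) at its own. Each library is raised at its own summit by the choice of that point. In the mean profile H3K4me2 fell to 4.99 RPM per kb at 200 to 400 bp from the LSD1 summit. The width limit of the rule partly sets such a fall. Strand summits differed by medians of 99 bp (LSD1) and 109 bp (H3K4me2), so a narrow dip could not have been seen. Some single members had both summits well apart. On chromosome 2 from 27617591 to 27618011, with 24 LSD1 and 16 H3K4me2 reads, the summits lay 936 bp apart, with the LSD1 summit outside the domain. On chromosome 13 from 24730426 to 24731325, with 23 LSD1 and 38 H3K4me2 reads, they lay 727 bp apart, with the LSD1 summit just outside the domain. The third largest offset, 692 bp, was on chromosome 2 from 30633867 to 30634741, where a wider domain lay 4.80 kb away. Such extremes were picked from 968 members.

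No lean of LSD1 towards the neighbouring wider domain was detectable. Counted as positive towards the nearest domain of 1 kb or more, the offset had a median of -3 bp (-15 to 6), with 477 members towards it and 489 away. In the 267 members with such a neighbour within 10 kb the median was 6 bp (-13 to 28).

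The distance to wider domains asked whether the members are satellites of larger marked regions. The median member lay 28.8 kb (25.2 to 33.1) from a domain of 1 kb or more, with quartiles of 8.56 and 93.2 kb. Within 5 kb lay 144 members (14.9%, 12.7 to 17.3), within 10 kb 267 (27.6%, 24.8 to 30.5) and beyond 100 kb 227 (23.5%, 20.8 to 26.3). Narrow domains without an LSD1 region were spread in much the same way, with a median of 30.5 kb (29.3 to 31.7), 15.8% (15.1 to 16.5) within 5 kb, 26.6% (25.8 to 27.4) within 10 kb and 24.2% beyond 100 kb. The intervals of the shares overlapped at each of these distances. Weighted to the widths and H3K4me2 reads of the members, the others gave a median of 27.0 kb and 28.8% within 10 kb. The share of narrow domains that were members was accordingly between 7.41% (6.29 to 8.67) and 9.10% (7.62 to 10.8) in all 5 classes of distance.

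The ratios of both ChIP libraries to IgG had overlapping intervals in the nearest and most distant members. LSD1 over IgG was 4.33 (3.98 to 4.71) in members within 5 kb of a wider domain and 4.72 (4.39 to 5.07) in those beyond 100 kb. H3K4me2 over IgG was 6.01 in both classes (5.54 to 6.53 and 5.61 to 6.45). LSD1 to H3K4me2 was 0.720 (0.690 to 0.751) in the nearest class and 0.785 (0.757 to 0.814) in the most distant, where the intervals did not overlap. The median LSD1 and H3K4me2 reads were 24 and 37 in the nearest class and 21 and 30 in the most distant. The most distant class also held the members of chromosomes 8, 16 and 18 named above among the 10 with most LSD1 reads. Their ratios were between 0.908 and 1.75. Of those 10, the member on chromosome 17 lay in the nearest class, with a ratio of 1.03. The LSD1 to H3K4me2 ratio also fell with domain width. The part of width, reads and such members in the difference was not tested. In the nearest example, on chromosome 2 from 32546691 to 32547260, a wider domain began 1.01 kb away, and the member held 15 LSD1, 20 H3K4me2 and 3 IgG reads. The most distant, on chromosome 8 from 101939515 to 101940468, lay 3562 kb from any wider domain and held 24 LSD1, 38 H3K4me2 and 3 IgG reads and no Input read. Another, on chromosome 12 from 36218666 to 36219235 at 2187 kb, held 22 LSD1 reads, 28 H3K4me2 reads and 1 IgG read. A member far from any wider domain could thus carry as many LSD1 reads as the median member.

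Within 10 kb, the nearest wider domain held an LSD1 region more often beside members, a comparison added after seeing the data. Several narrow domains can share the same nearest wider domain, which the intervals do not allow for. For the 267 members within 10 kb of a wider domain, the nearest one held an LSD1 region in 105 cases (39.3%, 33.4 to 45.5). For the 3027 other narrow domains at this distance it did in 886 cases (29.3%, 27.7 to 30.9), and the intervals did not overlap. The nearest wider domains were not wider beside the members, with medians of 1640 bp (1505 to 1760) against 1749 bp (1705 to 1802). The share was higher beside members on 13 of the 19 autosomes and lower on 6. At 10 to 100 kb the shares were 28.9% (24.9 to 33.2) and 25.6% (24.5 to 26.8), and beyond 100 kb 23.8% (18.4 to 29.9) and 22.9% (21.3 to 24.5). The difference was largest at short range and lay within the intervals at the greatest distances. Over all autosomal domains of 1 kb or more, 3168 of 10851 (29.2%) held an LSD1 region. Another member lay within 10 kb of 30 of 968 members (3.10%, 2.10 to 4.39). Of the 11397 other narrow domains, 301 (2.64%, 2.35 to 2.95) had a member within 10 kb, and the intervals overlapped. The median distance to a member was 376 kb (331 to 437) from members and 463 kb (444 to 481) from other narrow domains.

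**Figure D4:**
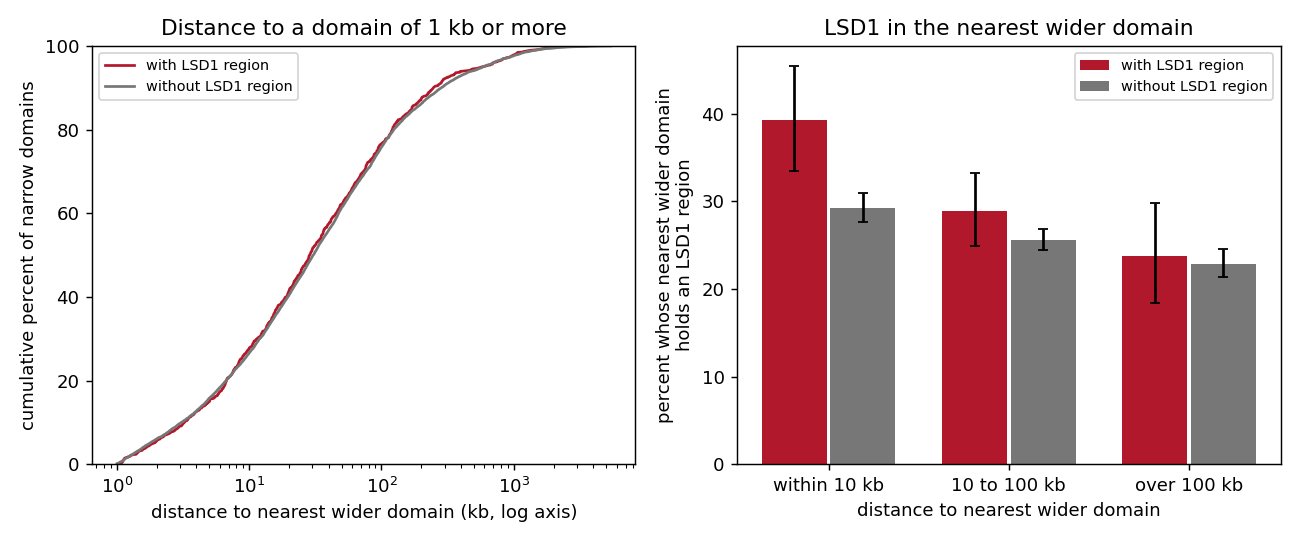
Left, cumulative percent of narrow domains by distance to the nearest domain of 1 kb or more (log axis), where both curves nearly coincide with medians of 28.8 and 30.5 kb. Right, percent whose nearest wider domain holds an LSD1 region, by distance class, with exact 95% intervals: 39.3% against 29.3% within 10 kb.

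The control libraries differed between narrow domains with and without an LSD1 region. The choice of members used the absence of an IgG region, and whether the deposited regions were called against Input or IgG is not known here. Input was lower in members, at 0.358 (0.335 to 0.381) against 0.455 (0.448 to 0.463) RPM per kb, and IgG was higher, at 1.19 (1.16 to 1.23) against 1.02 (1.01 to 1.03). IgG over Input was therefore 3.34 (3.11 to 3.59) in members and 2.24 (2.19 to 2.28) in the others. At least 2-fold over Input, IgG was found in 626 members (64.7%, 61.6 to 67.7), where the share over all narrow domains without an IgG region was 49.8%. At least 4-fold it was found in 296 (30.6%), against 19.6% over the same narrow domains. These shares used a pseudocount of 0.5 reads. With 1 read 50.1% of members were at least 2-fold, and the share over all narrow domains was not computed. Without the 8 members with at least 5 Input reads the ratio in members was 3.53 (3.28 to 3.80). Domains of 1 to 2 kb with an LSD1 region had 2.87 (2.77 to 2.98).

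Both groups showed a falling IgG to Input ratio with more H3K4me2 reads, and members were higher in each class. With 20 to 29 H3K4me2 reads the ratio was 4.12 (3.46 to 4.94) in members and 2.26 (2.18 to 2.33) in the others, and with 40 to 49 reads 2.93 (2.57 to 3.36) and 1.93 (1.84 to 2.04). In the lowest class, 10 to 19 reads, the intervals overlapped, at 6.23 (4.22 to 9.51) and 4.26 (3.98 to 4.55). LSD1 in members was 15.1-fold (14.2 to 16.1) over Input but 4.53-fold over IgG, against 6.87-fold (6.75 to 7.00) and 3.08-fold in the other narrow domains. What the low Input and raised IgG contribute to the LSD1 calls was not tested.

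**Figure D5:**
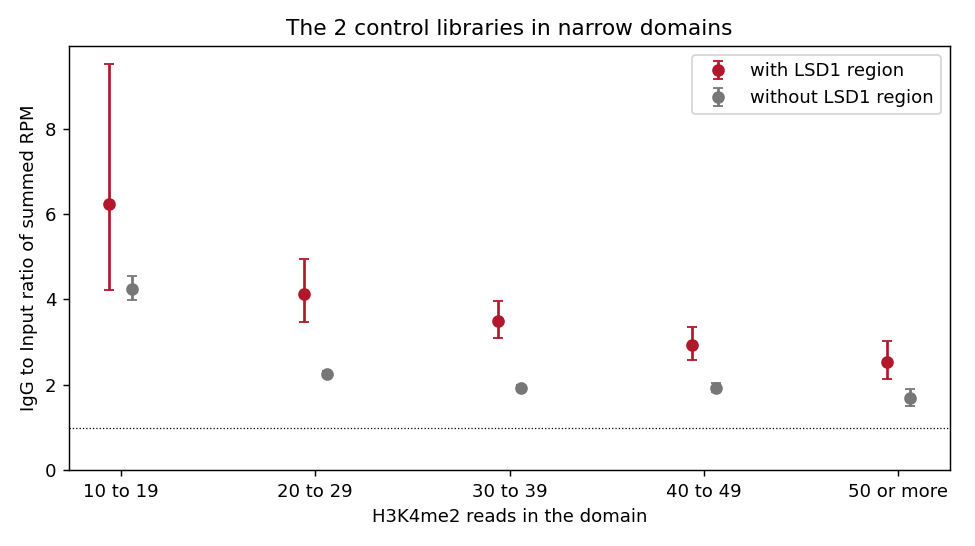
Ratio of IgG to Input in summed RPM, with exact binomial 95% intervals, by the number of H3K4me2 reads in the domain, for narrow domains with and without an LSD1 region. Members lie above the others in all 5 classes, with overlapping intervals only in the class of 10 to 19 reads.

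The members' share of narrow domains rose with H3K4me2 reads, from 3.43% (2.79 to 4.16) with 10 to 19 reads to 10.3% (9.28 to 11.4) with 30 to 39 and 30.3% (24.8 to 36.2) with 50 or more. At a fixed class of reads it had overlapping intervals at 600 to 799 and 800 to 999 bp, with the lower share in the wider domains. With 30 to 39 reads it was 10.8% (9.33 to 12.4) and 9.73% (8.22 to 11.4), with 40 to 49 reads 21.2% and 16.1%, and with 50 or more 41.2% (7 of 17 domains) and 29.5%. Domains of 1 to 2 kb with an LSD1 region, 1619 in all, were the nearest wider class. Their LSD1 density was lower than in the members, at 4.64 (4.60 to 4.68) RPM per kb against 5.41, while H3K4me2 density, at 7.32 (7.28 to 7.37) against 7.27 (7.19 to 7.35), had overlapping intervals. LSD1 to H3K4me2 was 0.634 (0.628 to 0.640) in them. An LSD1 region chose both sets, and density is per kb of the whole domain, with a median width of 1469 against 748.5 bp. What this contributes to their lower LSD1 density was not tested.

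Members were found on all 19 autosomes. Chromosome 7 had the highest share of narrow domains that were members, 10.2% (8.19 to 12.4), followed by chromosome 11 with 9.41% (7.68 to 11.4). Chromosome 13 had the lowest, 5.90% (4.12 to 8.15), and the median chromosome had 7.68%. The intervals of chromosomes 7 and 13, the extremes of 19, did not overlap. Per Mb, chromosome 11 held the most members, 0.799, against a median of 0.398 and a low of 0.221 on chromosome 14. LSD1 over IgG in members was between 3.05 on chromosome 18, which holds the member with 73 IgG reads, and 5.79 on chromosome 12.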

How the data were processed

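Per the labels' protocols, sonicated, crosslinked chromatin was precipitated, and size-selected fragments near 200 bp were sequenced in 36-base reads. The authors deposited, for each of 4 libraries, 1 line per read, with no start and strand repeated within a library, and for IgG, LSD1 and H3K4me2 a list of peak positions without scores. The build is mm9, per the submitters' processing notes. Aligner, peak caller and calling control: not given in the sources used here.

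Read starts were moved 100 bp along their strand and counted in regions. RPM used all reads of a library. Ratios carry exact binomial intervals conditional on the summed counts, shares exact Clopper-Pearson intervals, medians order-statistic intervals and densities exact Poisson intervals, all at 95%, covering counting or sampling of regions within 1 library. No interval was adjusted for multiplicity. Summits used the domain joined with its LSD1 regions. Scripts were tested on simulated data. Alternatives were the joining distance, width limit, read move, control, scaling, smoothing and pseudocount.

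The members and lists were chosen with earlier results of these data known. Named regions are the 10 members with the most LSD1 reads, those with extreme LSD1 to H3K4me2 ratios, distances, offsets or widths, and those at the width limit; not all are printed. The nearest wider domain's LSD1 region and the comparison above a floor of 18 LSD1 reads were added after seeing the data. Planned sequence features were not analysed here, since no mm9 genome was used. The work used scipy 1.17.1, pandas 2.3.3 and numpy 2.4.6 under Python 3.11.15, with plots by matplotlib 3.10.9.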

Additional observations from a re-analysis of the deposited data

Results flagged for a closer look

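Chromosome X was left out of the members, yet its 176 narrow H3K4me2 domains carried LSD1 reads above the IgG control. LSD1 stood 3.90-fold (3.39 to 4.49) over IgG there, with 1162 LSD1 and 243 IgG reads in all, and H3K4me2 10.1-fold (8.87 to 11.6). Only 1 of the 176 held an LSD1 region.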

How the results depend on the processing

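Over 16 results, 68 alternative values were computed, 12 of them chosen after seeing the data. Of the 68, 39 stayed within the main interval or, for counts, within 1.5 times, and 29 moved beyond it. A change of direction was defined only for the pooled ratios, relative to a ratio of 1, and 0 occurred. The 39 include the strand summit distances within each library, which measure precision and are not alternatives of the offset. Each value is taken singly here, while the order of members and others turned under 2 alternatives, as given below. No paired analysis was possible because a single library stood for every group. With a width limit of 800 bp there were 579 members, 6.09% of narrow domains. With Input as the control LSD1 stood at 15.1 and H3K4me2 at 20.3. Scaled to reads outside peaks, LSD1 over IgG was 4.90, H3K4me2 over IgG 7.38 and LSD1 to H3K4me2 0.664. In the upper 50% of members by H3K4me2 density these were 4.37, 6.41 and 0.682, and IgG over Input was 2.99. At 4-fold, 58.0% of members passed for LSD1 over IgG, 78.7% for H3K4me2 over IgG and 30.6% for IgG over Input. With a pseudocount of 1 read 50.1% passed 2-fold for IgG over Input. The summit distance was 117.5 bp and 87 bp with a smoothing SD of 40 and 150 bp, 45.3 bp from mean positions and 124.5 bp with at least 20 reads of each library. Counting only domains of 2 kb or more as wider gave medians of 90.4 kb for members and 93.3 kb for the others, with 10.8% and 12.5% within 10 kb, so that the order of these shares turned. Joining at 2 kb gave 24.5% of members and 22.7% of the others within 10 kb, with 33.2 kb as the median of the others, and joining at 500 bp gave 28.5% of the others within 10 kb. The weighted others gave 27.0 kb and 28.8%, turning the order of both the medians and the shares. Few reads per member limit single ratios and summits.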

Other observations

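The 10 narrow domains that touched both an LSD1 and an IgG region were kept out of the members. They held 462 LSD1, 439 H3K4me2, 625 IgG and 45 Input reads in all. LSD1 was below IgG in them, at 0.603 of its level (0.533 to 0.681), as was H3K4me2, at 0.521 (0.460 to 0.589), while IgG stood 11.1-fold (8.20 to 15.4) over Input. Each of the 10 narrow domains with an IgG region also held an LSD1 region.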
